A study of Mus musculus with 46 samples.

Results

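Cxcl1, Cxcl2 and Cxcl3 are neighbouring mouse genes for secreted chemokines that attract neutrophils. They were taken from the deposited tables by symbol, and the 3 genes were present in each of the 4 tables, among 24537 to 25124 listed genes. Their mRNA levels were measured by RNA-seq as TPM, a length-corrected share of all transcripts, in bone marrow-derived macrophages, cells grown from mouse marrow, in which SWI/SNF chromatin remodelling was perturbed and an inflammatory stimulus given.

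Chemokines are small secreted proteins that direct the movement of white blood cells. The products of these genes carry a Glu-Leu-Arg motif ahead of the CXC cysteines and act through the receptor CXCR2 on neutrophils. Mice lack a gene for IL-8 (CXCL8), and CXCL1 (KC), CXCL2 (MIP-2) and CXCL3 (DCIP-1) serve as its counterparts. In macrophages the genes are induced through NF-kB after the receptor TLR4 recognises bacterial lipopolysaccharide (LPS) or its active part, lipid A. Their mRNAs are short-lived and carry AU-rich elements that decay factors such as tristetraprolin, the product of Zfp36, bind.

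In experiment 1, macrophages treated with ACBI1, BRM014 or BRDK98 and given lipid A for 4 hr were set beside WT control macrophages at 0, 1 and 4 hr. SMARCA2 and SMARCA4 are the alternative ATPase motors of SWI/SNF. ACBI1 causes their degradation and that of PBRM1, a subunit of the PBAF form of the complex, whereas BRM014 blocks their catalytic activity. For BRDK98 the sources used here give a code name alone. In experiment 2, Arid1a-/- cells at 1 and 4 hr of LPS were set beside Arid1a f/f controls at 0, 1 and 4 hr, where ARID1A is the defining subunit of the canonical BAF form of the complex. In experiment 3, Pbrm1-/- cells at 4 hr of lipid A were set beside Pbrm1 f/f controls at 0 and 4 hr. In experiment 4, the same compounds were tested at 20 and 60 min of lipid A, beside WT controls at 0, 20 and 60 min. The labels give no dose or duration of compound treatment and no Cre driver, and unstimulated perturbed cells were not analysed here. A change in the number of responding cells and a change in RNA per cell cannot be told apart in such bulk samples.

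The 46 samples fell into 23 groups of 2. In the control group at 4 hr of experiment 1 the values of replicate 2 were not analysed here, so that group has n = 1 and 45 libraries were used. Exonic reads per library numbered 7015044 to 27527103. All 8 macrophage markers checked were at 1 TPM or more in at least 1 library of every group. Of 9 neutrophil markers, 4 to 6 reached 1 TPM in the groups of experiment 1, 4 or 5 in experiment 2, 6 or 7 in experiment 3 and 8 in experiment 4. Their summed TPM was 22.8 to 98.5, 55.8 to 86.1, 371 to 539 and 317 to 481 in the successive experiments, while Ly6g alone stayed at or below 0.34 TPM. Arid1a mRNA was 7.17 and 13.2 TPM in Arid1a-/- cells at 1 hr, against 18.3 and 17.3 TPM in Arid1a f/f cells. At 4 hr it was 25.4 and 26.1 TPM in Arid1a-/- cells, against 35.2 and 41.9 TPM in Arid1a f/f cells. Pbrm1 mRNA was 4.54 and 5.03 TPM in Pbrm1-/- cells, against 15.6 and 14.7 TPM in Pbrm1 f/f cells. The exons removed are not given in the labels, so mRNA outside them can remain. Pbrm1 also overlaps 4 annotated genes on the opposite strand, and Arid1a overlaps 1 on the same strand. Reads were counted on both strands, so these values are less certain.

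The genes lie on the plus strand of chromosome 5 (mm10) with 4 exons each. Cxcl3 (NM_203320) spans chr5:90786101-90788093, Cxcl1 (NM_008176) spans chr5:90891245-90893115 and Cxcl2 (NM_009140) spans chr5:90903899-90905938. The end of Cxcl1 lies 10784 bp before the start of Cxcl2, while 103152 bp separate the end of Cxcl3 from the start of Cxcl1. No annotated gene overlaps any of them. The 120 bases before each RefSeq start (GRCm38.p6) are shown 5′ to 3′ because the genes moved together in some comparisons and apart in others; capitals mark the runs of at least 8 bases that the 3 windows share.

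Cxcl1 (chr5:90891125-90891244): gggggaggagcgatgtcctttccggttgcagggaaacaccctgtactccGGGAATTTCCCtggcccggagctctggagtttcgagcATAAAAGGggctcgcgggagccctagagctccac

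Cxcl2 (chr5:90903779-90903898): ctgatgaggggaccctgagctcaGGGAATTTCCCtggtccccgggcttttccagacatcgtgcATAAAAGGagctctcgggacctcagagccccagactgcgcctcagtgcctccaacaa

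Cxcl3 (chr5:90785981-90786100): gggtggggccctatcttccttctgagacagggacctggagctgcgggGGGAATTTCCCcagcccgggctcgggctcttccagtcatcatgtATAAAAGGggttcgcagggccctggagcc

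The first shared run, GGGAATTTCCC, has the form of an NF-kB binding motif and starts at -71, -97 and -73 relative to the starts of Cxcl1, Cxcl2 and Cxcl3. It was found on either strand in 9 of 32851 promoter windows of the same length (0.0274%). The windows include those of the 3 chemokine genes, from which the shared runs were taken. Only this exact run was counted, not other forms of the motif. The second shared run, ATAAAAGG, resembles a TATA box, starts at -34, -57 and -29, and was found in 0.947% of the windows. TATAAA was found in 6.34% of windows and, of the chemokine genes, in that of Cxcl3. The AP-1 motif TGANTCA (3.41% of windows) and the STAT motif TTCNNNGAA (3.15%), searched on both strands, had no match in these windows. Aligned over their whole length, shared runs included, the windows had 53.4% identity between Cxcl1 and Cxcl2, 63.6% between Cxcl1 and Cxcl3 and 52.0% between Cxcl2 and Cxcl3. These positions and identities rest on the RefSeq starts. A second gene annotation starts Cxcl2 at 90903871, upstream of its RefSeq start of 90903899. By that annotation the end of the Cxcl2 window lies inside the gene, and both runs lie nearer to its start. It starts Cxcl1 at 90891241 and Cxcl3 at 90786103, near their RefSeq starts of 90891245 and 90786101. A match is a description of the sequence and does not show that a factor binds there.

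The transcripts share 60.8% (Cxcl1 and Cxcl2), 60.9% (Cxcl1 and Cxcl3) and 66.6% (Cxcl2 and Cxcl3) of aligned bases. Of the 50-base windows of each transcript, which match the read length, 61 of 1060 in Cxcl2 and 61 of 967 in Cxcl3 are identical between these genes, and none of 904 in Cxcl1 is found in another gene. How such reads were counted is not given in the sources used here. Cxcl2 was above Cxcl3 by up to 7107-fold in a single library, so Cxcl3 received at most a small share of Cxcl2 reads there.

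The genes differed widely in level. Over the 45 libraries Cxcl2 took a median of 90.0% of their summed TPM (84.2 to 98.2%), Cxcl1 a median of 7.03% (1.25 to 15.2%) and Cxcl3 a median of 0.151% (0 to 3.07%). The highest level was 4909 TPM for Cxcl2, 691 TPM for Cxcl1 and 24.8 TPM for Cxcl3. A count of 3 reads equals 0.121 to 0.553 TPM for Cxcl2, 0.139 to 0.632 TPM for Cxcl1 and 0.129 to 0.589 TPM for Cxcl3, depending on the library. Cxcl3 was listed at 0 in 7 libraries and had 3 reads or fewer in 20, so its low values are near the limit of these libraries.

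Below, a log2 change is a difference between group means of log2(TPM + 1) with its standard error, and each adjusted p is from limma, adjusted over all tested genes. A gene is said to rise or fall where the adjusted p was under 0.05 with the same sign on TPM as deposited and after each library was scaled by its median ratio. The share of all tested genes that met this rule in either direction stands beside each comparison. On TPM as deposited the median change of all genes was -0.15 to -0.84 between controls stimulated for 60 min to 4 hr and resting controls, -0.14 with ACBI1 at 60 min and -0.12 with Pbrm1 loss, and scaling removes such shifts.

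In control macrophages the stimulus raised Cxcl1 and Cxcl2 within 20 min and all 3 genes within 60 min. Cxcl2 had 154 and 147 TPM at 20 min, against 10.6 and 8.76 TPM at 0 min (log2 change 3.83 ± 0.08). Cxcl1 had 7.59 and 7.20 TPM at 20 min, against 0.136 and 0.370 TPM at 0 min (2.75 ± 0.17). Both were clear of their resting libraries at a time when 1.08% of tested genes had changed. Cxcl3 had 0.259 and 0.211 TPM at 20 min and 0.127 and 0.069 TPM at 0 min, which is 10 and 2 reads (0.17 ± 0.13, adjusted p = 0.514).

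At 60 min Cxcl2 reached 4670.1 and 4909 TPM, 495-fold its resting mean, and Cxcl1 reached 270.0 and 279 TPM (log2 changes 8.81 ± 0.08 and 7.79 ± 0.17 against 0 min). Cxcl3 reached 5.85 and 5.71 TPM (2.63 ± 0.13 against 0 min), on 200 reads at 60 min and 2 at 0 min. Between 20 and 60 min the ratio of means was 37.1 for Cxcl1, 31.9 for Cxcl2 and 24.6 for Cxcl3. All 3 genes rose in both intervals (60 against 0 min, 25.5% of tested genes called; 60 against 20 min, 23.3%).

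In experiment 1 all 3 genes were high at 1 hr of lipid A and lower again at 4 hr. At 1 hr Cxcl2 had 3399.6 and 3823 TPM, Cxcl1 had 598 and 691 TPM and Cxcl3 had 21.2 and 24.8 TPM. The corresponding 0 hr values were 8.48 and 6.80 TPM for Cxcl2, 1.05 and 0.768 TPM for Cxcl1 and 0.196 and 0.238 TPM for Cxcl3. The log2 changes were 8.71 ± 0.10, 8.40 ± 0.12 and 4.30 ± 0.17 (29.1% of tested genes called). By 4 hr the 1 control library had 159 TPM of Cxcl2, 18.6 TPM of Cxcl1 and 3.37 TPM of Cxcl3. All 3 were lower at 4 hr than at 1 hr (-4.50, -5.04 and -2.46; 57.6% called) and higher than at 0 hr (4.22, 3.37 and 1.84; 57.5% called). Replicate 1 of the 1 hr libraries also carried fibroblast transcripts, with Col1a1 at 56.2 TPM there and 0.04 TPM in replicate 2; without replicate 1 the 1 hr log2 changes were 8.80, 8.50 and 4.41.

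In Arid1a f/f cells given LPS, Cxcl3 was higher at 4 hr than at 1 hr, whereas Cxcl1 was lower. Cxcl1 had 331 and 319.8 TPM at 1 hr and 55.5 and 52.5 TPM at 4 hr (-2.57 ± 0.26). Cxcl3 had 6.23 and 7.53 TPM at 1 hr and 12.2 and 10.5 TPM at 4 hr (0.66 ± 0.14, adjusted p = 0.00167; 0.151 with a pseudocount of 0.1). Cxcl2 had 1955 and 1914 TPM at 1 hr and 572 and 568 TPM at 4 hr. Its resting libraries differed, with 26.1 TPM in replicate 1 and 0.820 TPM in replicate 2, which widened its standard error throughout experiment 2 (4 hr against 1 hr, -1.76 ± 1.14, adjusted p = 0.21). Fitted from the 1 and 4 hr control libraries alone, an option planned for each comparison, the adjusted p was 2.04e-06. Each of the genes rose against 0 hr at 1 hr (Cxcl1 7.69 ± 0.26, Cxcl2 8.11 ± 1.14, Cxcl3 2.84 ± 0.14; 33.8% of tested genes called) and at 4 hr (5.12, 6.35 and 3.49; 53.4%), and 50.1% of genes were called between 4 and 1 hr. For Cxcl2 the rises were lost when only the compared groups were fitted (adjusted p = 0.0542 at 1 hr and 0.0694 at 4 hr).

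In Pbrm1 f/f cells the 4 hr levels were lower than in the other experiments, with 76.8 and 106 TPM of Cxcl2, 7.25 and 3.96 TPM of Cxcl1 and 1.61 and 1.12 TPM of Cxcl3. At 0 hr these cells had 5.05 and 5.79 TPM of Cxcl2, 0.765 and 0.291 TPM of Cxcl1 and no Cxcl3 read. All 3 rose by 4 hr (3.83 ± 0.19, 2.08 ± 0.29 and 1.24 ± 0.27; 46.6% of tested genes called), and Cxcl3, with 35 reads at 4 hr, was at least 6.73-fold higher against a floor of 3 reads per library, taken from the 0 hr library with the higher floor. Levels across experiments come from separate tables and were not tested against each other.

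**Figure D1:**
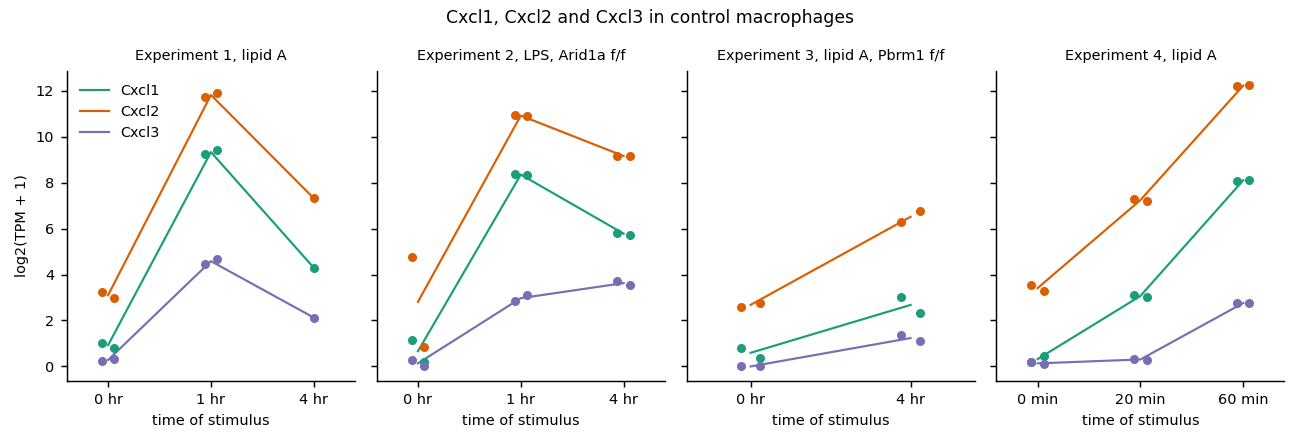
Level of Cxcl1, Cxcl2 and Cxcl3 on the log2(TPM + 1) scale (vertical axis) in control macrophages at each time of stimulus (horizontal axis, times equally spaced), by experiment; points are libraries and lines join group means. Cxcl2 lies highest at each time, and in experiment 2 Cxcl3 is higher at 4 hr (12.2 and 10.5 TPM) than at 1 hr (6.23 and 7.53 TPM).

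At 20 min of lipid A, Cxcl1 and Cxcl2 fell with BRM014 and with BRDK98, and Cxcl2 rose with ACBI1. The compounds were not tested against each other at this time. Cxcl2 had 243 and 226 TPM with ACBI1, 36.6 and 36.9 TPM with BRM014, 34.2 and 35.8 TPM with BRDK98 and 154 and 147 TPM in control cells. The log2 changes against control were 0.64 ± 0.08 (adjusted p = 0.00359), -2.00 ± 0.08 (adjusted p = 1.5e-08) and -2.07 ± 0.08, and the libraries of each compound lay clear of the control libraries. Cxcl1 had 8.52 and 7.38 TPM with ACBI1, 0.664 and 1.28 TPM with BRM014, 1.14 and 1.62 TPM with BRDK98 and 7.59 and 7.20 TPM in control cells. It fell with BRM014 (-2.11 ± 0.17) and BRDK98 (-1.83 ± 0.17), and its ACBI1 and control libraries overlapped (0.09, 95% interval -0.27 to 0.45, adjusted p = 0.922).

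Few other genes had changed at this time: 0.147% of tested genes with ACBI1 (17 genes), 0.39% with BRM014 (45 genes) and 1.33% with BRDK98 (154 genes). The ACBI1 call on Cxcl2 was lost without ACBI1 replicate 1 (0.59, adjusted p = 0.0927) or control replicate 2 (0.60, adjusted p = 0.0876). BRM014 cells held 24.4% of the control mean of Cxcl2 and 13.2% of that of Cxcl1, and BRDK98 cells held 23.3% and 18.6%. Cxcl3 had at most 11 reads in a group at 20 min, and no difference was detectable at that depth (adjusted p from 0.617 to 0.943).

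At 60 min all 3 genes fell with each of the 3 compounds. Cxcl1 had 134 and 133 TPM with ACBI1, 114 and 82.2 TPM with BRM014, 20.2 and 17.8 TPM with BRDK98 and 270.0 and 279 TPM in control cells. Its log2 changes were -1.03, -1.49 and -3.79 (SE 0.17 each). Cxcl2 had 2616 and 2573 TPM with ACBI1, 3639 and 3353 TPM with BRM014, 779.7 and 776 TPM with BRDK98 and 4670.1 and 4909 TPM in control cells. Its log2 changes were -0.88, -0.45 and -2.62 (SE 0.08 each). Every compound library lay below both control libraries for both genes. The Cxcl2 call with BRM014 was lost when only the compared groups were fitted (adjusted p = 0.0895), and in the authors' deposited table its log2 change was -0.50 (adjusted p = 0.130). The direction of that table's columns in experiments 2 and 4 was read from the TPM, since the headers name the control first.

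Cxcl3 was left at the lowest share of its control mean with each compound, a difference between genes that was not tested. It had 1.30 and 1.23 TPM with ACBI1, 0.512 and 0.506 TPM with BRM014, 0.140 and 0.133 TPM with BRDK98 and 5.85 and 5.71 TPM in control cells. Its log2 changes were -1.58, -2.17 and -2.58 (SE 0.13 each). In reads these are 47, 16 and 4 in the compound groups and 200 in the control group, so the control level was 42.8-fold that with BRDK98 (95% counting interval 16.4 to 158). As a share of the control mean, ACBI1 left 48.8% of Cxcl1, 54.2% of Cxcl2 and 21.9% of Cxcl3. BRM014 left 35.8%, 73.0% and 8.81%, and BRDK98 left 6.92%, 16.2% and 2.36%. At 60 min 25.2% of tested genes were called with ACBI1, 30.2% with BRM014 and 11.6% with BRDK98.

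At 60 min the ratios between the genes in the compound libraries lay outside those of control cells. Cxcl2 over Cxcl1 was 19.3 to 19.5 with ACBI1, 31.9 to 40.8 with BRM014, 38.6 to 43.6 with BRDK98 and 17.3 to 17.6 in control cells at 60 min. Cxcl2 over Cxcl3 was 2014 to 2089, 6627 to 7107 and 5569 to 5832 with these compounds, against 799 to 860 in control cells. Ordered by mean level of Cxcl2 over experiment 4, control cells at 60 min came first, then BRM014, ACBI1 and BRDK98 at 60 min, ACBI1, control, BRM014 and BRDK98 at 20 min, and 0 min. The BRM014 and BRDK98 groups at 20 min stood closest in that order, with 36.6 and 36.9 TPM beside 34.2 and 35.8 TPM. For Cxcl1 the order at 60 min was control, ACBI1, BRM014 and BRDK98.

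The change with a compound itself differed between 60 and 20 min. With ACBI1 the change at 60 min was lower than at 20 min for Cxcl1 (difference -1.12 ± 0.24), Cxcl2 (-1.52 ± 0.11) and Cxcl3 (-1.63 ± 0.19), where 18.5% of tested genes were called. With BRM014 the difference was 1.55 ± 0.11 for Cxcl2, whose reduction was smaller at 60 min, and -1.99 ± 0.19 for Cxcl3 (13.3% called). For Cxcl1 with BRM014 it was 0.61 (adjusted p = 0.111), and it was past the threshold without BRM014 replicate 2 of 20 min (0.84) or of 60 min (0.85). With BRDK98 it was -1.96 for Cxcl1, -0.55 for Cxcl2 and -2.38 for Cxcl3 (6.66% called). The Cxcl3 differences set an induced level at 60 min against a level near the floor at 20 min, and none of them was past the threshold with voom on recovered reads (adjusted p from 0.0576 to 0.201). With a pseudocount of 0.1 those of Cxcl1 with ACBI1 (adjusted p = 0.0754) and BRDK98 (0.0709) were not either.

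The compounds were compared with each other in 3 pairs at 60 min; since the labels give no doses, whether these were matched is not known. BRDK98 left less of each gene than ACBI1 did (Cxcl1 -2.76, Cxcl2 -1.74, Cxcl3 -1.0; 35% of tested genes called) and less than BRM014 did (-2.29, -2.17 and -0.41; 26.8% called). The last of these, Cxcl3 with BRDK98 against BRM014, rests on 4 and 16 reads (adjusted p = 0.0365). BRM014 left less Cxcl1 (-0.46 ± 0.17, adjusted p = 0.0285) and less Cxcl3 (-0.59 ± 0.13) than ACBI1 did (47.8% called). The Cxcl1 difference was not past the threshold without ACBI1 replicate 1, ACBI1 replicate 2 or BRM014 replicate 2 (range -0.70 to -0.23), and the Cxcl3 difference between BRDK98 and BRM014 was not without BRM014 replicate 1 or either BRDK98 replicate (-0.41 to -0.40). With a pseudocount of 0.1 neither these differences nor that of Cxcl3 with BRM014 against ACBI1 (adjusted p = 0.0868) passed. For Cxcl2 with BRM014 against ACBI1 the log2 change of 0.43 (adjusted p = 0.000346) was 0.20 on scaled TPM (adjusted p = 0.0737), so it was not called.

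At 4 hr of lipid A, in experiment 1, the direction was no longer the same for the 3 genes. Cxcl1 and Cxcl2 were higher with ACBI1 than in the control library, and Cxcl3 was lower with each compound. Cxcl1 had 69.3 and 67.3 TPM with ACBI1, 38.8 and 31.4 TPM with BRM014, 26.5 and 24.0 TPM with BRDK98 and 18.6 TPM in the control library. Cxcl2 had 479 and 447 TPM with ACBI1, 273 and 274 TPM with BRM014, 173 and 173 TPM with BRDK98 and 159 TPM in the control library. The log2 changes with ACBI1 were 1.82 ± 0.15 for Cxcl1 (adjusted p = 1.47e-05) and 1.54 ± 0.12 for Cxcl2 (adjusted p = 1.24e-05), among 33.4% of tested genes called.

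The increases of Cxcl1 and Cxcl2 with the other compounds did not hold on scaled TPM. At this time the median change of all genes was 0.25 with ACBI1, 0.43 with BRM014 and 0.46 with BRDK98 on TPM as deposited. With BRM014 the log2 change of Cxcl1 was 0.87 as deposited and 0.31 scaled (adjusted p = 0.115), and that of Cxcl2 was 0.78 and 0.20 (adjusted p = 0.217). With BRDK98 Cxcl1 was 0.42 as deposited and -0.21 scaled, and Cxcl2 was 0.13 and -0.52 (adjusted p = 0.407 and 0.00778), so the sign depended on the scaling. In the authors' deposited table, where the repeated control column also appears, the log2 changes were 1.56 for Cxcl1 and 1.23 for Cxcl2 with ACBI1, 0.35 and 0.22 with BRM014 and -0.15 and -0.46 with BRDK98. The control group has 1 library here, so the spread used in the test is that of the other groups. BRM014 had 42.8% and BRDK98 34.5% of tested genes called.

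Cxcl3 fell with each compound at 4 hr. It had 0.353 and 0.775 TPM with ACBI1, 0 and 0 TPM with BRM014, 0.232 and 0.244 TPM with BRDK98 and 3.37 TPM in the control library. These values rest on 10, 0 and 4 reads in the compound groups and 19 in the control library. The log2 changes were -1.49 ± 0.20 with ACBI1 (adjusted p = 0.000243), -2.13 with BRM014 and -1.82 with BRDK98. In proportion, the level was at least 6.73-fold lower with BRM014 against a floor of 3 reads per library, taken from the BRM014 library with the higher floor, and the control level was 13.9-fold that with BRDK98 (counting interval 4.61 to 56.1).

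Between compounds at 4 hr, BRM014 left less Cxcl1 (-0.95 ± 0.12), Cxcl2 (-0.76 ± 0.10) and Cxcl3 (-0.63 ± 0.17, adjusted p = 0.0113) than ACBI1 did (30.3% of tested genes called). BRDK98 left less Cxcl1 (-1.40) and Cxcl2 (-1.41) than ACBI1 did (36.5% called), and less of both than BRM014 did (-0.45 and -0.66; 45.2% called). For Cxcl3, BRDK98 did not differ detectably from ACBI1 (-0.32, 95% interval -0.69 to 0.05) or from BRM014 (0.31, -0.06 to 0.68). The Cxcl3 difference of BRM014 from ACBI1 was lost without ACBI1 replicate 2 (-0.44). That of BRDK98 from ACBI1 was gained without ACBI1 replicate 1 (-0.52), as judged on TPM as deposited only. The Cxcl1 difference of BRDK98 from BRM014 was lost without BRDK98 replicate 2 (-0.39) or BRM014 replicate 1 (-0.31). The summed TPM of the 9 neutrophil markers was 86.7 to 94.4 with ACBI1, 51.8 to 62.5 with BRM014, 22.8 to 24.2 with BRDK98 and 98.5 in the control library, with Ly6g listed at 0 in these libraries. Most of that sum in the control library was Csf3r, at 57.7 and 58.0 TPM with ACBI1, 6.96 and 7.90 TPM with BRM014, 8.68 and 8.45 TPM with BRDK98 and 67.6 TPM in the control library. S100a8 was 22.2 and 15.1 TPM with BRM014, 2.12 and 2.55 TPM with BRDK98 and 8.34 TPM in the control library. Of 6 neutrophil markers tested, 0 were called with ACBI1, 1 was lower with BRM014 and 3 were lower with BRDK98. Of all tested genes 33.4%, 42.8% and 34.5% were called with these compounds. The part of the neutrophil markers in these results was not tested.

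**Figure D2:**
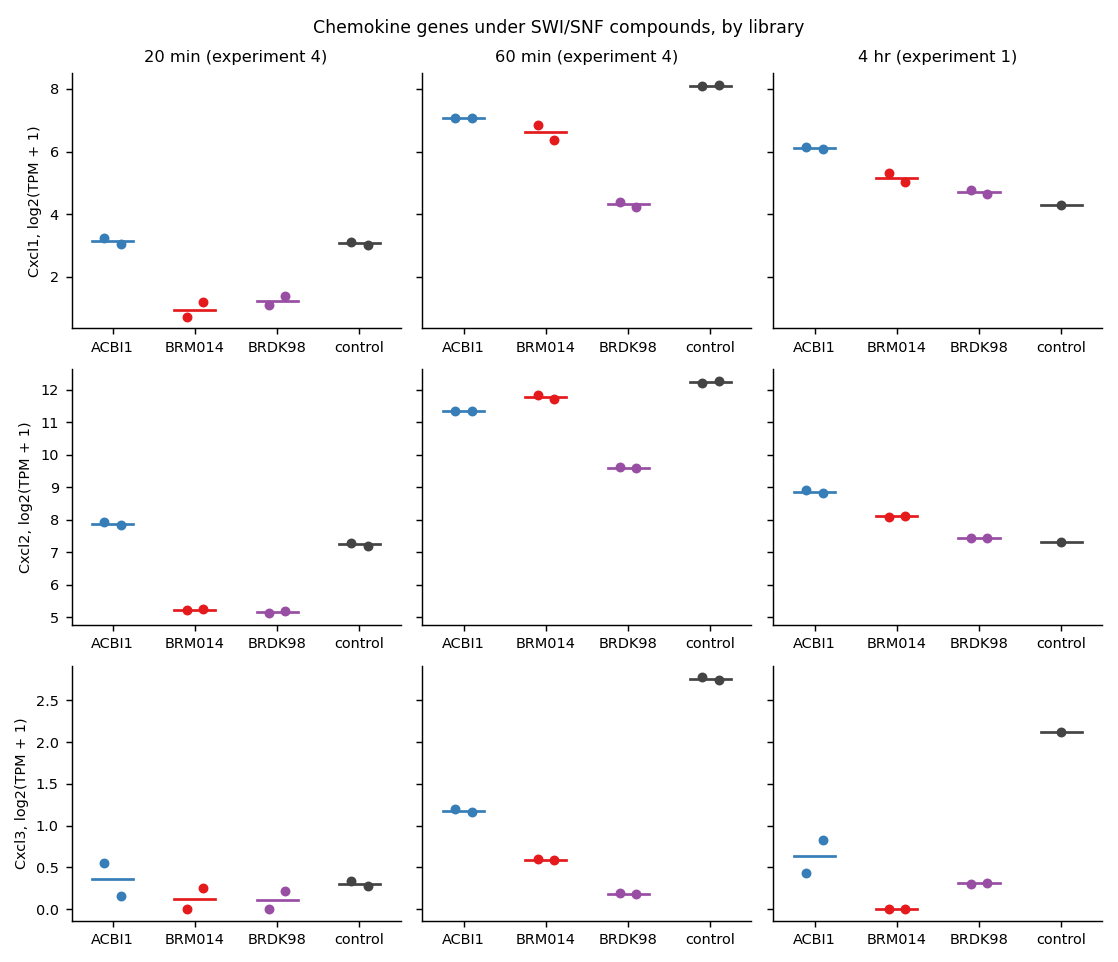
Level of each chemokine gene on the log2(TPM + 1) scale (vertical axis) in cells with ACBI1, BRM014 or BRDK98 and in control cells at 20 min, 60 min and 4 hr of lipid A; points are libraries and bars are group means. At 20 min Cxcl2 is higher with ACBI1 (243 and 226 TPM) than in control cells (154 and 147 TPM), at 60 min all compound libraries lie below the control libraries, and at 4 hr Cxcl1 and Cxcl2 are highest with ACBI1 while Cxcl3 is lower with every compound.

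Cxcl3 fell with loss of Arid1a at 1 hr of LPS and rose with it at 4 hr. At 1 hr it had 2.27 and 2.02 TPM in Arid1a-/- cells, against 6.23 and 7.53 TPM in Arid1a f/f cells (log2 change -1.32 ± 0.14, adjusted p = 6.73e-05), so its mean was 0.312 of the control mean. Cxcl2 had 4331 and 4102 TPM in Arid1a-/- cells, against 1955 and 1914 TPM in Arid1a f/f cells. Cxcl1 had 555 and 541 TPM in Arid1a-/- cells, against 331 and 319.8 TPM in Arid1a f/f cells. Both knockout libraries lay above both control libraries for Cxcl1 and Cxcl2 and below them for Cxcl3, at a time when 35.5% of tested genes were called.

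The differences of Cxcl1 and Cxcl2 at 1 hr were not called in the fit over all groups, which contains the discordant resting libraries (Cxcl1 0.75 ± 0.26, adjusted p = 0.0564; Cxcl2 1.12 ± 1.14, adjusted p = 0.487). In a fit without both 0 hr libraries, added after the data were seen, the adjusted p was 0.00011 for Cxcl1 and 1.0e-05 for Cxcl2, with the same log2 changes. In the authors' deposited table the log2 changes at 1 hr, read as knockout over control from the TPM, were 0.71 for Cxcl1, 1.08 for Cxcl2 (adjusted p = 4.01e-11) and -1.72 for Cxcl3. The Cxcl2 over Cxcl1 ratio was 7.58 to 7.81 in Arid1a-/- cells and 5.90 to 5.99 in Arid1a f/f cells at 1 hr.

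At 4 hr of LPS all 3 genes had higher values in Arid1a-/- cells. Cxcl3 had 20.5 and 19.7 TPM in Arid1a-/- cells, against 12.2 and 10.5 TPM in Arid1a f/f cells (0.77 ± 0.14, adjusted p = 0.00262; 0.187 with a pseudocount of 0.1). Cxcl1 had 102 and 102 TPM in Arid1a-/- cells, against 55.5 and 52.5 TPM in Arid1a f/f cells (0.91 ± 0.26, adjusted p = 0.038), a call lost without any 1 of these 4 libraries (adjusted p from 0.104 to 0.137). Cxcl2 had 899 and 922 TPM in Arid1a-/- cells, against 572 and 568 TPM in Arid1a f/f cells (0.68 ± 1.14, adjusted p = 0.72; 0.000198 without the 0 hr libraries). The ratios of means were 1.76 for Cxcl3, 1.89 for Cxcl1 and 1.60 for Cxcl2, and 24.8% of tested genes were called.

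The change of Cxcl3 with Arid1a loss thus had opposite signs at the 2 times, and the difference itself was past the threshold (2.09 ± 0.20, adjusted p = 0.000205, with 15.9% of tested genes called). For Cxcl1 the difference between times was 0.16 (95% interval -0.71 to 1.02) and for Cxcl2 -0.45 (-4.44 to 3.54), neither past the threshold. Without the 0 hr libraries the adjusted p of the Cxcl2 difference was 0.0175. The summed TPM of the neutrophil markers was 71.7 to 72.2 in Arid1a-/- cells and 56.6 to 62.2 in Arid1a f/f cells at 1 hr, and 81.5 to 86.1 in Arid1a-/- cells and 66.5 to 74.5 in Arid1a f/f cells at 4 hr. Their part in the Arid1a results was not tested.

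Loss of Pbrm1 was accompanied by no called difference. At 4 hr of lipid A Cxcl2 had 107 and 89.8 TPM in Pbrm1-/- cells, against 76.8 and 106 TPM in Pbrm1 f/f cells (0.11, 95% interval -0.32 to 0.55). Cxcl1 had 8.35 and 5.58 TPM in Pbrm1-/- cells, against 7.25 and 3.96 TPM in Pbrm1 f/f cells (0.29, -0.37 to 0.96). Cxcl3 had 3.65 and 1.49 TPM in Pbrm1-/- cells, against 1.61 and 1.12 TPM in Pbrm1 f/f cells (0.53, -0.10 to 1.16). The groups overlapped for each gene, and the smallest unadjusted limma p of the 3 was that of Cxcl3, at 0.0896. Of all tested genes 0.00905% were called, which is 1 gene.

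**Figure D3:**
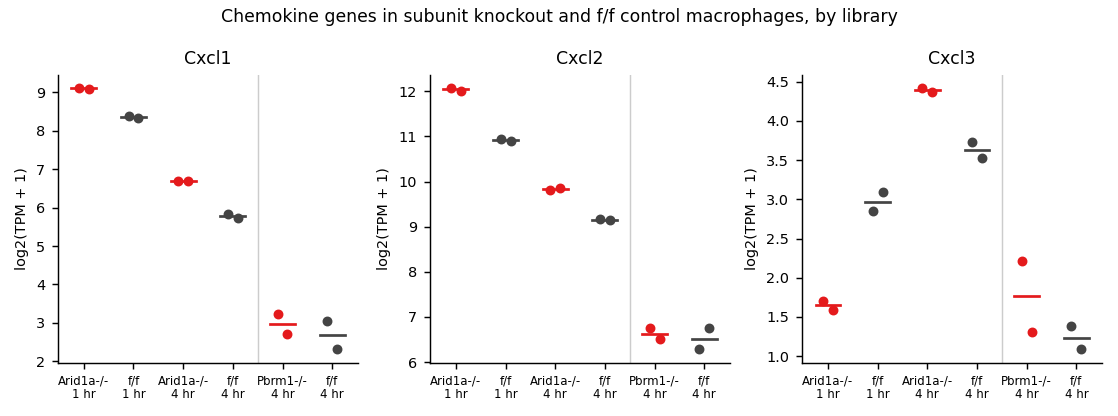
Level of each chemokine gene on the log2(TPM + 1) scale (vertical axis) in Arid1a-/- and Arid1a f/f cells at 1 and 4 hr of LPS and in Pbrm1-/- and Pbrm1 f/f cells at 4 hr of lipid A; points are libraries and bars are group means. Cxcl3 is lower in Arid1a-/- cells at 1 hr (2.27 and 2.02 TPM, against 6.23 and 7.53 TPM) and higher at 4 hr (20.5 and 19.7 TPM, against 12.2 and 10.5 TPM), and the Pbrm1-/- and Pbrm1 f/f libraries overlap.

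**Figure D4:**
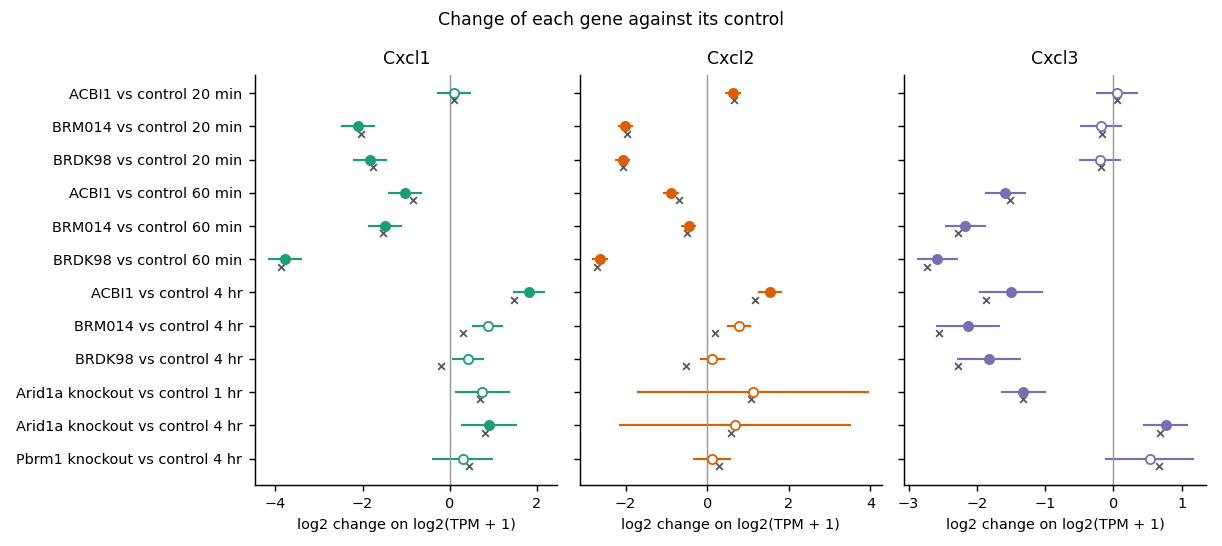
Log2 change of each chemokine gene, perturbed over control (difference of mean log2(TPM + 1)), in each comparison, with 95% intervals; filled points were called on both scalings, open points were not, and grey crosses are the values on median-ratio scaled TPM. With ACBI1, Cxcl2 is above 0 at 20 min (0.64), below 0 at 60 min (-0.88) and above 0 at 4 hr (1.54), and the wide intervals of Cxcl2 with Arid1a loss come with the resting libraries of 26.1 and 0.820 TPM.

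Other products that act on neutrophils, among them Tnf, Il1b and the chemokines Ccl3 and Ccl4, were followed as a list. Of 11 such genes tested at 60 min, 10 fell with BRM014 and 10 with BRDK98 (list medians -1.96 and -2.06, all-gene medians 0.04 and 0.08), whereas 4 rose and 2 fell with ACBI1 (median -0.08, all genes -0.14). Of all tested genes 30.2%, 11.6% and 25.2% were called with BRM014, BRDK98 and ACBI1. Tnf had a mean of 1855 TPM with BRDK98, against 5678 TPM in control cells (-1.61), and was -0.39 on the log2 scale with BRM014. Ccl4 was -2.79 with BRDK98 and -0.62 with BRM014. Il1b, the gene of interleukin-1 beta, was -4.25 with BRDK98, -2.92 with BRM014 and 0.45 with ACBI1. At 20 min 3 of the 11 fell with BRM014, 3 fell with BRDK98 and 1 rose with ACBI1, where 0.39%, 1.33% and 0.147% of all tested genes were called.

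At 4 hr, of 12 tested, 2 rose and 3 fell with ACBI1, 4 rose and 5 fell with BRM014, and 1 rose and 3 fell with BRDK98. The shares of all tested genes called were 33.4%, 42.8% and 34.5%, so the counts with ACBI1 and BRDK98 were near the share over all genes. The list medians were 0.14, -0.18 and 0.10, beside 0.25, 0.43 and 0.46 over all genes. Tnf had a mean of 3136 TPM with ACBI1, against 968 TPM in the control library (1.69), so it rose there with Cxcl1 and Cxcl2. In Arid1a-/- cells 1 of 11 rose and 5 fell at 1 hr, and 3 rose and 3 fell at 4 hr, where 35.5% and 24.8% of all tested genes were called. The list medians were -0.12 and 0.23, beside 0.03 and 0.05 over all genes. Il1b had means of 151 TPM in Arid1a-/- cells and 1568 TPM in Arid1a f/f cells at 1 hr (-3.37). Il1b overlaps an annotated gene on the opposite strand and reads were counted on both strands, so its values are less certain. In Pbrm1-/- cells 0 of 8 were called, where 0.00905% of all tested genes (1 gene) were called.

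Among 11 genes of the NF-kB pathway that act on these chemokines, 0 rose and 8 fell in Arid1a-/- cells at 1 hr and 4 fell at 4 hr (list medians -0.80 and -0.37; 35.5% and 24.8% of all tested genes called, 16.8% and 10.8% as lower). At 60 min 1 rose and 7 fell with BRM014, 5 fell with BRDK98 and 1 rose with ACBI1, beside 30.2%, 11.6% and 25.2% of all tested genes called (list medians -0.49, -0.16 and -0.12). Tnfaip3, which encodes the NF-kB inhibitor A20, was -2.01 with BRM014 and -0.90 with BRDK98, and Nfkbia, which encodes the inhibitor I-kappa-B alpha, was 0.63 with BRM014. Nfkbiz, which encodes the inducible cofactor I-kappa-B zeta, was -0.88 with BRM014 and -1.35 with BRDK98 at 20 min. It is 1 of the 11 genes, and counts of the list at 20 min are not given here. Of all tested genes 0.39% and 1.33% were called with BRM014 and BRDK98 at 20 min. Of 10 factors of AU-rich mRNA decay and stability, 2 rose and 1 fell with ACBI1, 1 rose and 1 fell with BRM014, and 3 rose with BRDK98 at 60 min. The counts with ACBI1 and BRM014 were near or under the 25.2% and 30.2% of all tested genes called, and the list medians of -0.12, 0.06 and 0.15 were close to those of all genes (-0.14, 0.04 and 0.08). Zfp36 had a mean of 6779 TPM with BRDK98, against 4086 TPM in control cells at 60 min (0.73). At 4 hr 2 of the 10 rose and 3 fell with ACBI1, and 4 rose and 2 fell with BRM014. With BRDK98 1 rose and 4 fell. Of all tested genes 33.4%, 42.8% and 34.5% were called with ACBI1, BRM014 and BRDK98. The list medians were 0.16, 0.84 and 0.51, beside 0.25, 0.43 and 0.46 over all genes. At 4 hr Zfp36 was -0.56 with ACBI1 (534 TPM, against 789 TPM) and -2.05 with BRDK98, and it was -0.83 in Arid1a-/- cells (543 TPM, against 966 TPM). The part of Zfp36 in the chemokine changes was not tested. Zfp36 also overlaps an annotated gene on the opposite strand.

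Of 5 listed receptors and clearance receptors of these chemokines only Cxcr4, a receptor for a different CXC chemokine, passed the filter on low values, and Cxcr2 did not. Of 4 listed relatives in the same gene cluster, Pf4 and Ppbp, which encode platelet chemokines, were tested. They were not called after 60 min of lipid A in control cells, where 25.5% of all tested genes were called. Both were lower with ACBI1 at 60 min, where 25.2% of all tested genes were called. Pf4 had a mean of 247 TPM with ACBI1, against 653 TPM in control cells (-1.40). The summed TPM of 8 macrophage markers was 26864 to 27285 with ACBI1 and 32609 to 33224 in control cells at 60 min. That of the 9 neutrophil markers was 317 to 330 with ACBI1 and 422 to 442 in control cells. Of 8 neutrophil markers tested, 1 was higher and 3 were lower, beside 11.6% and 13.7% of all tested genes. The part of either set of markers in the ACBI1 results was not tested.

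Over the 19 group means of stimulated cells, each taken relative to the resting control mean of its experiment, Cxcl1 and Cxcl2 had a Pearson correlation of 0.977. Cxcl3 had 0.586 with Cxcl1 and 0.548 with Cxcl2. In 20 of the 45 libraries Cxcl3 had 3 reads or fewer. The resting mean of Cxcl2 in experiment 2 comes from libraries of 26.1 and 0.82 TPM. The part of either in these correlations was not tested. Of 7915 other genes, the 5 nearest to Cxcl1 were Rasgef1b (0.919), Pvr (0.899), Atf3 (0.892), Cd83 (0.856) and Plaur (0.856). The 5 nearest to Cxcl2 were Atf3 (0.927), Rasgef1b (0.914), Tnfsf9 (0.889), Pvr (0.875) and Nfkbiz (0.869). For Cxcl3 they were Ccr3 (0.840), Ccl12 (0.828), Cdc42ep2 (0.824), Il1b (0.819) and Ccl7 (0.812), and none of these was among the 5 nearest to either of the others. Of these neighbours Rasgef1b, Pvr, Atf3, Tnfsf9 and Il1b overlap other annotated genes. Reads were counted on both strands, so their values are less certain. The group means share resting controls within an experiment, so these values describe likeness of pattern and carry no p.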

How the data were processed

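Messenger RNA was measured per the labels' protocols with a stranded kit and 50 bp single reads. Per the submitters' processing notes, STAR 2.5.3a, HOMER and DESeq2 were used with mm10. The values analysed are TPM as deposited by the authors, counted on both strands over exons per the file headers. The authors' deposited tables of log2 fold changes, p-values and adjusted p-values were used only where named. In 1 table a TPM column repeats the name and all 24537 values of another library; that 1 column was not used. The members and the gene lists were chosen with earlier results of these data known.

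A filter kept genes reaching 1 TPM in 2 or more libraries, which left 11531, 11798, 11044 and 11549 genes in the successive experiments. One limma 3.58.1 fit per experiment (R 4.3.3) used log2(TPM + 1) values and moderated variances (trend, robust). Benjamini-Hochberg adjustment was applied per contrast, of which there were 32, with a threshold of 0.05. The fit was tested on simulated data. The pseudocount of 1 shrinks changes of low genes. Nothing in the labels ties replicates to separate cultures or animals, and p-values measure only the spread between these samples, which may be technical. Reads were recovered from TPM and exon length; intervals from them (95%, exact binomial) and floors of 3 reads cover counting error only.

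Beyond the chemokine genes, the text names up to 4 members of each list by mean TPM, and the 5 genes most like each member in pattern among genes at 5 TPM or more. Checked once, same-numbered replicates did not deviate together (median correlations -0.011 to 0.146), so numbers were not taken to pair samples. Alternatives were median-ratio scaling, a pseudocount of 0.1, no filter, plain moderation, leaving out each library, a replicate block, voom on recovered reads, and fits of the compared groups alone; a fit of experiment 2 without 0 hr libraries was chosen after seeing the data. Promoters are from RefSeq (GRCm38.p6).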

Additional observations from a re-analysis of the deposited data

Results flagged for a closer look

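The following changes differed between times in a test of the difference itself. The change of Cxcl3 with Arid1a loss was higher at 4 hr than at 1 hr of LPS by 2.09 on the log2 scale. The change with ACBI1 was lower at 60 min than at 20 min of lipid A for Cxcl1 (-1.12), Cxcl2 (-1.52) and Cxcl3 (-1.63). The change with BRM014 was higher at 60 min for Cxcl2 (1.55) and lower for Cxcl3 (-1.99). The change with BRDK98 was lower at 60 min for Cxcl1 (-1.96), Cxcl2 (-0.55) and Cxcl3 (-2.38). The Cxcl3 differences with the compounds start from levels near the floor at 20 min and were not past the threshold with voom on recovered reads (adjusted p = 0.0576 with ACBI1, 0.201 with BRM014 and 0.0712 with BRDK98). The Cxcl1 differences were not past it with a pseudocount of 0.1 (0.0754 with ACBI1 and 0.0709 with BRDK98).

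A further difference was not tested, because its values come from different experiments. With ACBI1 at 4 hr of lipid A (experiment 1) every library lay above the control library for Cxcl1 (1.82) and Cxcl2 (1.54). With ACBI1 at 60 min (experiment 4) every library lay below both control libraries (-1.03 and -0.88).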

How the results depend on the processing

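A value in this section is called by its own adjusted p under 0.05, not by the rule on both scalings. It is set against the value on TPM as deposited. Over 96 member results and 1083 alternative values, 1018 kept their side of the threshold, 44 lost the call and 17 gained one. Another 4 changed sign with either value past the threshold. Changes of sign with neither past it count among the 1018, as for Cxcl1 with Pbrm1 loss (-0.072 to 0.66 leaving out 1 library). In 66 results every alternative was among the 1018. Median-ratio scaling gave, at 4 hr, BRM014 0.31 (Cxcl1) and 0.20 (Cxcl2) and BRDK98 -0.21 and -0.52, Arid1a loss at 1 hr 0.69 (Cxcl1, called) and BRM014 against ACBI1 at 60 min 0.20 (Cxcl2). Voom on reads gave 0.31, 0.20, -0.22, -0.52 and 0.69 for the first 5 of these. For Cxcl3 it gave time differences of -2.09 (ACBI1), -3.32 (BRDK98) and -1.95 (BRM014), and -1.71 for BRDK98 against BRM014 at 60 min.

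A pseudocount of 0.1 gave for Cxcl1 0.43 (BRDK98, 4 hr), 0.92 (Arid1a loss, 4 hr), -1.14 and -1.49 (time differences, ACBI1 and BRDK98) and -0.47 (BRM014 against ACBI1, 60 min). For Cxcl3 it gave -2.18 and -2.29 (time differences, ACBI1 and BRM014), -1.16 (BRM014 against ACBI1, 60 min), 1.76 and -1.36 (BRDK98 against BRM014, 4 hr and 60 min), 0.82 (Arid1a loss, 4 hr) and 0.72 (f/f, 4 against 1 hr). Without a filter BRDK98 at 4 hr was 0.42 and BRM014 against ACBI1 at 60 min -0.46 for Cxcl1, and without trend or robust moderation Cxcl1 was 0.42 with BRDK98 at 4 hr and 0.75 with Arid1a loss at 1 hr.

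With a replicate block, Cxcl1 with Arid1a loss at 1 hr was 0.75 (adjusted p = 0.041); the block changed no other call of the 3 genes. Fits without 0 hr libraries, or on the compared groups alone, called Arid1a loss at 1 hr (Cxcl1 0.75, Cxcl2 1.12), at 4 hr (Cxcl2 0.68) and its time difference (Cxcl2 -0.45). On the compared groups alone, Cxcl2 in f/f cells was 8.11 (1 against 0 hr) and 6.35 (4 against 0 hr), no longer called, and -1.76 (4 against 1 hr), called. BRM014 at 60 min (Cxcl2 -0.45), BRM014 against ACBI1 (Cxcl1 -0.46) and BRDK98 against BRM014 (Cxcl3 -0.41) lost the call.

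Leaving out 1 library changed calls on TPM as deposited within these ranges. At 4 hr they were 0.35 to 0.48 (Cxcl1, BRDK98), -0.83 to -0.44 (Cxcl3, BRM014 against ACBI1), -0.52 to -0.13 (Cxcl3, BRDK98 against ACBI1), -0.60 to -0.31 (Cxcl1, BRDK98 against BRM014) and 0.87 to 0.95 (Cxcl1, Arid1a loss). In experiment 4 they were 0.59 to 0.69 (Cxcl2, ACBI1, 20 min), 0.38 to 0.85 (Cxcl1, BRM014 time difference), -0.70 to -0.23 (Cxcl1, BRM014 against ACBI1) and -0.41 to -0.40 (Cxcl3, BRDK98 against BRM014). The cause of these shifts was not tested. Depth limits Cxcl3 below about 0.6 TPM.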

Other observations

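In the authors' deposited table Cxcl1 has a p of 3.83e-12 and an adjusted p of 1 at 20 min against 0 min of lipid A in control cells, and a p of 1.4e-12 and an adjusted p of 1 with BRM014 against control at 20 min, whereas Cxcl1 with BRDK98 against control at 20 min has a p of 5.47e-12 and an adjusted p of 9.04e-10. Filtering on the adjusted p of that table would drop the first pair of comparisons of Cxcl1. How the adjusted values were made is not given in the sources used here.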
